A study of Danio rerio with 12 samples.

Results

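The 92 genes described here encode proteins of the sarcomere and of muscle contraction, out of 37541 gene identifiers measured in whole zebrafish larvae. They were chosen by the start of their symbol, which took the myosin heavy and light chains, troponins, tropomyosins, alpha-actinins, myosin-binding proteins C, titin cap, titin, nebulin, myozenins, myomesins, LDB3, SMYD1 and UNC45B. By symbol, 26 belong to fast skeletal muscle, 10 to slow skeletal muscle and 16 to the heart. Of the rest, 15 are scaffold proteins of the Z-disc, M-band, titin and nebulin, and 3 (SMYD1 copies and UNC45B) were classed as chaperones. Another 9 striated muscle genes were not assigned to a fibre type, and 13 genes are smooth muscle or non-muscle forms that share the family names. The mutants were homozygous for a 4-nt deletion in ercc2/xpd (ercc2/xpd-/-), predicted to end the protein early, in the AB strain. The siblings were a mixture labelled ercc2/xpd+/+ & ercc2/xpd+/-, so wild-type and heterozygous larvae were not separated. Larvae were collected at 5 or 7 days post-fertilization (dpf), with 3 libraries for each genotype and age (12 libraries), each made from a pool of whole larvae. Fewer cells of a type and less RNA per cell cannot be told apart in such samples.

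The sarcomere is built from thick filaments of myosin, which bind actin and pull, and thin filaments of actin covered by tropomyosin and troponin, which let myosin bind only when calcium rises. Troponin C binds the calcium, troponin I blocks the contact between actin and myosin, and troponin T ties the complex to tropomyosin. Titin spans from the Z-disc to the M-band, alpha-actinin crosslinks actin in the Z-disc, and titin cap (tcap) holds the end of titin there. Fast, slow and heart muscle use different paralogs of most of these proteins, and zebrafish carry further copies of many of them. Several copies carry the same human-style symbol, so they are identified below by their chromosome in GRCz11, with the family member that RefSeq places on that chromosome in brackets where there is only 1.

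FPKM, the number of fragments scaled for transcript length and depth, is a level per length and lets genes be compared. The fast genes dominated the family. Their summed FPKM was 19258 ± 4588 in siblings and 19098 ± 1786 in mutants at 5 dpf, and 19076 ± 2849 in siblings and 17951 ± 4929 in mutants at 7 dpf (mean ± SD, n = 3). At 5 dpf the fast genes took 3.03% to 3.55% of all FPKM in siblings and 3.58% to 3.92% in mutants. The whole family took 3.49% to 3.93% and 4.18% to 4.53%, also without overlap. With this scaling the median change of all genes at 5 dpf was above 0 too. At 7 dpf both shares overlapped between genotypes. The summed level of the slow genes was 442 ± 52.3 and 486 ± 40.2 FPKM in siblings and mutants at 5 dpf, and 324 ± 50.8 and 314 ± 75.3 FPKM at 7 dpf. The heart genes summed to 269.6 ± 53.1 and 373 ± 24.7 FPKM at 5 dpf, and to 304 ± 56.7 and 244 ± 21.6 FPKM at 7 dpf. At 5 dpf the highest sibling library stood at 327 FPKM for the heart genes and the lowest mutant library at 350.3 FPKM. Scaffold sums also lay apart at 5 dpf (at most 672 FPKM in siblings, at least 681 FPKM in mutants). So did those of the striated genes without a fibre type (at most 678 and at least 688 FPKM). Family names set these classes, and tnnt2d, a troponin T classed with the heart, alone averaged 157 FPKM, a large part of the heart sum.

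All 6 members above 1000 FPKM on average were fast genes and held 72.6% of the level of the family. They were the essential light chain MYL1 on chromosome 1 (6095 FPKM) and on chromosome 9 (1420 FPKM), troponin I TNNI2 on chromosome 25 (ENSDARG00000029069, 2299 FPKM), the fast heavy chain myhz1.1 (2076 FPKM), the regulatory light chain MYL11 on chromosome 12 (mylpfb, 2026 FPKM) and troponin T TNNT3 on chromosome 7 (tnnt3b, 1720 FPKM). Of the slow genes, troponin C TNNC1 on chromosome 23 averaged 223 FPKM and tropomyosin tpm3 107 FPKM, and the others stayed at or below the 30.3 FPKM of tnni1c. In the heart class, myosin-binding protein MYBPC3 averaged 31.5 FPKM and MYL7, the light chain of the heart tube, 25.0 FPKM. Scaffold genes were led by myoz1b (161 FPKM), ldb3b (139.7 FPKM), MYOM2 (99.4 FPKM) and MYOM1 on chromosome 2 (myom1a, 85.2 FPKM). The highest genes without a fibre type were the light chain myl10 (459 FPKM) and the tropomyosin TPM2 (113 FPKM). At the other end, 38 members averaged below 10 FPKM and held 0.661% of the level. The genes tnnc2.1 and tnni1d were listed at 0 in all libraries, where 3 reads would be worth up to 0.402 FPKM of tnnc2.1.

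A member could be tested where it reached 0.5 FPKM in at least 3 libraries, which 89 of 92 did, as did 23648 genes in all; NEB (nebulin, mean 0.316 FPKM) did not. The libraries held 13403615 to 15084280 recovered reads, and the family took 3.16% to 4.59% of the summed FPKM. Among the libraries 2 stood apart, with the highest summed FPKM of their groups and the lowest weights when limma weighed the libraries, namely sibling 5 dpf replicate 2 (688416 FPKM, weight 0.458) and mutant 7 dpf replicate 3 (577065 FPKM, weight 0.537). The labelled tissue held muscle RNA. All 8 identifiers found for the skeletal muscle markers outside the family were detected, at a sum of 7.25% to 11.1% of FPKM. The listed marker desma had no match. Markers of the exocrine pancreas moved with the genotype at both ages, 12 of 12 being lower in mutants. They summed to 8464 to 15867 FPKM in siblings and 164 to 846 FPKM in mutants at 5 dpf, and to 23102 to 28517 and 286 to 2258 FPKM at 7 dpf. Their part in the results below was not tested.

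At 5 dpf most members stood slightly higher in mutants than in siblings, but few passed the test. On the log2(FPKM + 0.5) scale, which understates changes of low genes, 6 members were higher and 0 lower at an adjusted p under 0.05 (limma, adjusted over all tested genes). Over all genes 0.655% were called higher and 2.16% lower (2.82% in either direction). At an unadjusted p under 0.05, the called members included, 25 members were higher and 4 lower, against 6.98% and 7.53% of all genes. Voom of limma on the recovered reads called 9 members higher and 0 lower, against 0.994% and 1.55% of all genes. Only 1 member, tcap, stayed higher once mutant 5 dpf replicate 1 was left out. The 3 mutant libraries lay above the 3 sibling libraries for 31 of 89 members, against 9.31% of all genes, and below them for 2, against 10.3%. These members share their libraries and are not independent. Of the 89 fold changes 71 were positive, with a median of 0.22 against 0.02 over all genes.

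The classes differed in their median at 5 dpf. It was 0.59 for the slow genes, 0.37 for the heart genes, 0.21 for the fast genes and 0.17 for the scaffold genes. The 13 smooth muscle and non-muscle genes had a median of 0.24, above those of the fast and scaffold genes. All 9 slow genes had a positive fold change (52.6% of all genes) and 6 had non-overlapping groups (9.31% of all genes). With limma 0 passed the test, 5 had an unadjusted p under 0.05 (6.98% of all genes) and voom called 1 (0.994% of all genes). Groups also lay apart, higher in mutants, for 8 of 16 heart genes and 5 of 9 genes without a fibre type. The fast genes had 5 of 25, the scaffold genes 2 of 14 and the smooth and non-muscle genes 5 of 13. The slow median fell to 0.35 without sibling 5 dpf replicate 2, which was the lowest library of its group for 4 of the 5 slow troponins tested. Of the heart genes 2 of 16 were called higher, of the fast genes 2 of 25, of the scaffold genes 1 of 14 and of the genes without a fibre type 1 of 9. Over all genes this share was 0.655%. Of the chaperones 0 of 3 were called (voom called 0 of 3 and none had an unadjusted p under 0.05). Of the smooth and non-muscle genes 0 of 13 were called with limma or voom. At an unadjusted p under 0.05, 5 of them were higher and 1 lower (6.98% and 7.53% of all genes). The summed heart markers outside the family (6 identifiers, none at 0 throughout) ranged from 16.5 to 23.3 FPKM in siblings and from 22.0 to 27.8 FPKM in mutants, with a median fold change of 0.41 and 0 of 5 tested called with limma or voom (3 at an unadjusted p under 0.05). Their part in the higher heart genes was not tested.

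**Figure D1:**
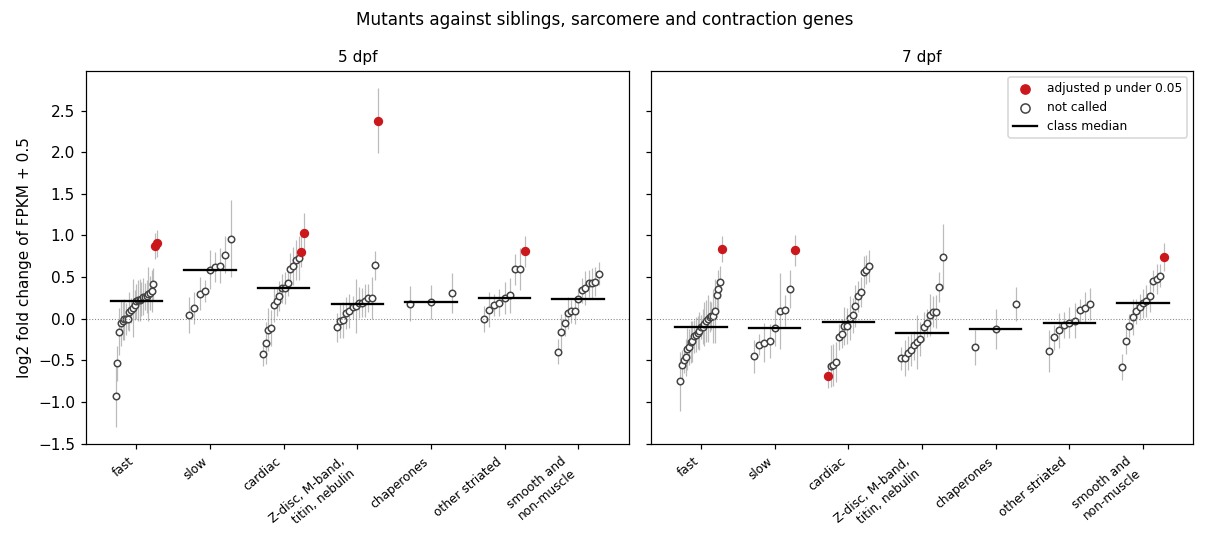
The log2 fold change of FPKM + 0.5, mutants against siblings, of each tested member (points, with the standard error) at 5 dpf (left) and 7 dpf (right), by class. Red points passed the test, and black lines are class medians, which lay above 0 for all 7 classes at 5 dpf and only for the smooth and non-muscle genes at 7 dpf, although with TPM, total-read or voom scaling the other 6 medians at 7 dpf were also above 0, at most 0.15 with TPM against 0.19 for all genes.

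The largest change belonged to tcap, on chromosome 3 (21240594 to 21242460, minus strand). Its level was 13.3, 7.61 and 19.7 FPKM in the siblings at 5 dpf, and 60.5, 58.0 and 89.1 FPKM in the mutants. All mutant libraries were above all sibling libraries, with a log2 fold change of 2.38 ± 0.39 (SE, adjusted p = 0.0060, limma). This call held in every alternative that was run (adjusted p 0.0031 to 0.030). At 7 dpf the siblings had reached 46.1, 54.5 and 26.1 FPKM and the mutants stood at 53.0, 50.1 and 118 FPKM. The groups then overlapped, and the fold change of 0.75 ± 0.39 did not pass the test (adjusted p = 0.33, 95% interval of the change -0.16 to 1.65).

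Among the other scaffold genes, the myozenin myoz3a was 2.30, 2.85 and 2.64 FPKM in siblings and 4.87, 3.72 and 4.41 FPKM in mutants at 5 dpf, groups that did not overlap but did not pass the test (log2 fold change 0.64 ± 0.18, adjusted p = 0.089). The M-band genes MYOM2 and MYOM1 (myom1a) had fold changes of -0.03 ± 0.20 and 0.07 ± 0.19. The titin gene at 42732992 to 42873700 on chromosome 9 did not separate the groups, at 2.89 ± 0.54 FPKM in siblings and 2.85 ± 0.43 FPKM in mutants (SD, n = 3, 95% interval of the log2 change -0.51 to 0.49).

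The members called higher at 5 dpf included troponins, a family with many members here. TNNI2 on chromosome 7 (ENSDARG00000035958, 39399747 to 39406763), 1 of several fast troponin I copies, was at 41.3, 41.9 and 54.6 FPKM in siblings and 91.8, 78.8 and 80.8 FPKM in mutants. All mutant libraries were above all sibling libraries, with a log2 fold change of 0.87 ± 0.16 (adjusted p = 0.0095). The copy on chromosome 25 at 31264155 to 31275944 (ENSDARG00000013752) was far lower, at 1.90, 1.65 and 1.72 FPKM in siblings and 4.30, 3.45 and 3.45 FPKM in mutants, and rose by 0.90 ± 0.17 (adjusted p = 0.011). With mutant replicate 1 of 5 dpf left out neither TNNI2 call held (adjusted p = 0.055 and 0.065). The abundant TNNI2 copy ENSDARG00000029069 did not share this difference, with a change of -0.01 ± 0.24 (95% interval -0.57 to 0.56). The neighbouring TNNI2 copy on chromosome 7 (ENSDARG00000029995, mean 205 FPKM) overlapped between the genotypes. It ranged from 169 to 206 FPKM in siblings and from 199 to 258 FPKM in mutants at 5 dpf. At 7 dpf it was 205 ± 35.8 FPKM in siblings and 208 ± 24.8 FPKM in mutants (SD, n = 3). Similar copies can share reads, and the sequences were not compared here, so the split among TNNI2 copies is uncertain.

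TNNT2 on chromosome 23 (tnnt2a), troponin T of the heart, was at 7.06, 2.81 and 6.06 FPKM in siblings and 10.7, 10.4 and 10.9 FPKM in mutants at 5 dpf. The mutant libraries lay together above a wide sibling group, and the log2 change of 1.03 ± 0.25 was just past the threshold (adjusted p = 0.049, limma). This call was lost without any 1 of 11 of the 12 libraries (adjusted p 0.055 to 0.15), all but sibling 5 dpf replicate 1. The paralog TNNT2 on chromosome 6 (tnnt2b) had a change of 0.72 ± 0.26 (adjusted p = 0.21), with overlapping groups. Slow troponin T, TNNT1, was 6.53, 3.29 and 6.11 FPKM in siblings and 8.39, 9.56 and 9.25 FPKM in mutants (0.77 ± 0.23, adjusted p = 0.11), and slow troponin I TNNI1 on chromosome 6 (tnni1b) gave 0.62 ± 0.18 (adjusted p = 0.11). The main slow troponin C, TNNC1 (258 ± 37.3 against 265 ± 23.1 FPKM), did not separate the groups.

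Of the tropomyosins, tpm4a on chromosome 22 was at 16.4, 14.7 and 21.3 FPKM in siblings and 33.2, 27.4 and 31.8 FPKM in mutants at 5 dpf, with a log2 change of 0.81 ± 0.18 (adjusted p = 0.036, limma). With the replicate number as a block within each age the adjusted p was 0.053. Leaving out 1 of 7 libraries ended the call (adjusted p 0.051 to 0.15), namely any mutant at 5 dpf, sibling 5 dpf replicates 1 and 2, mutant 7 dpf replicate 2 and sibling 7 dpf replicate 1. The more abundant TPM2, tpm1 and tpm3 had changes of 0.19 ± 0.16, 0.17 ± 0.13 and 0.13 ± 0.19, with overlapping groups.

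A myosin of the thick filament was among the 6 of 89 members called higher at 5 dpf (0.655% of all genes). MYH7 on chromosome 2 (24274293 to 24289726), a heart heavy chain, was at 1.73, 1.66 and 1.70 FPKM in siblings and 2.79, 3.84 and 3.47 FPKM in mutants at 5 dpf. The sibling libraries were nearly equal and all lay below the mutants, with a change of 0.81 ± 0.18 (adjusted p = 0.035). The call did not hold with the replicate number as a block (adjusted p = 0.053) or without any 1 of the 6 libraries of that age (adjusted p 0.052 to 0.14). Its neighbour MYH6 (24252987 to 24270062) stood at 6.60 ± 1.40 and 8.53 ± 0.65 FPKM (0.37 ± 0.17, adjusted p = 0.36, limma). RefSeq lists no myh6 on that chromosome, so this name is uncertain. The fast heavy chain myhz1.1 was 1414 ± 46.0 FPKM in siblings and 1708 ± 219 FPKM in mutants (0.27 ± 0.22, adjusted p = 0.64). For the MYH6 on chromosome 2 and for myhz1.1 all mutant libraries lay above all sibling libraries, but neither passed the test. The heart gene myh6 on chromosome 20 was 0.81 ± 0.21 FPKM in siblings and 1.48 ± 0.23 FPKM in mutants at 5 dpf. At 7 dpf myh6 was 1.13 ± 0.09 FPKM in siblings and 2.06 ± 0.54 FPKM in mutants. Its groups did not overlap at either age, and it was not called. The groups of the light chain MYL1 on chromosome 1 overlapped (-0.16 ± 0.28). The slow heavy chain myh7ba was 1.26, 0.661 and 1.29 FPKM in siblings and 1.60, 1.70 and 2.46 FPKM in mutants (0.64 ± 0.21, adjusted p = 0.16).

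**Figure D2:**
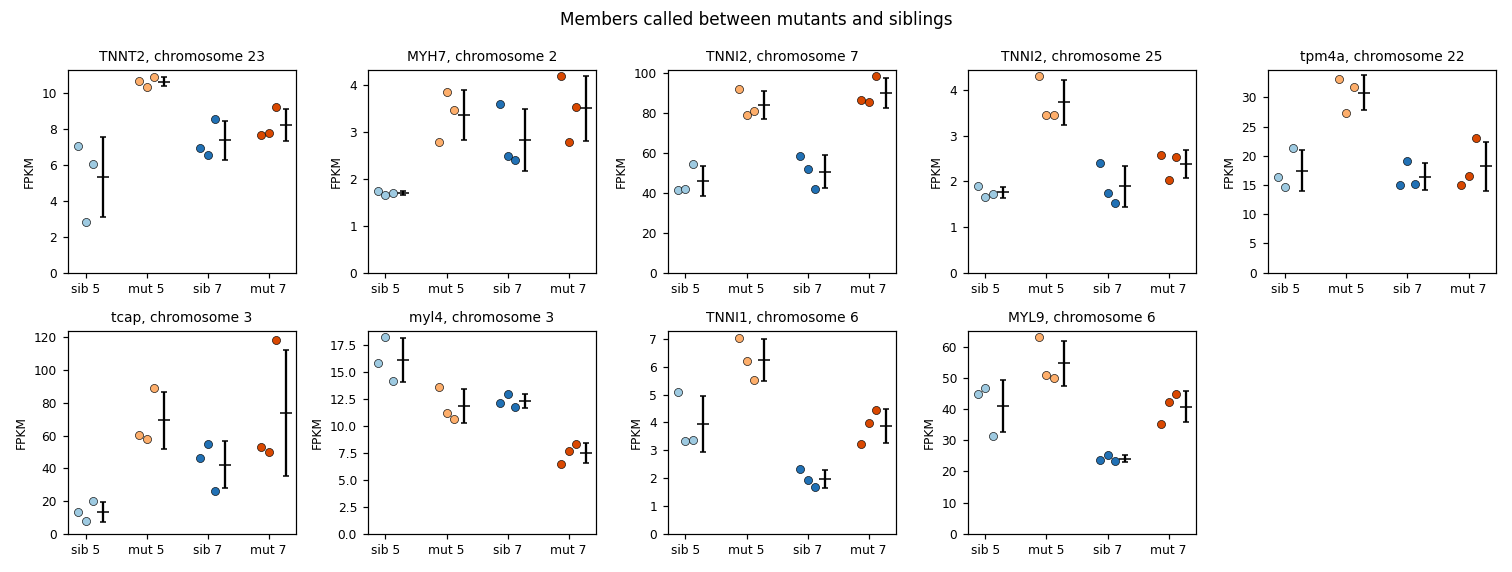
FPKM in each library (points) with the group mean ± SD (bars) of the 9 members called between mutants (mut) and siblings (sib) at 5 or 7 dpf, by genotype and age. The tcap level of siblings at 5 dpf (7.61 to 19.7 FPKM) lies below every other library. The called TNNI2 copy on chromosome 7 (ENSDARG00000035958) is at 78.8 FPKM or above in all mutants and at 58.3 FPKM or below in all siblings.

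At 7 dpf few members separated the genotypes. The test called 3 members higher and 1 lower, against 1.8% and 3.25% of all genes (5.05% in either direction), and the median change was -0.06 against 0.01 over all genes, a sign that depends on the scaling. The mutant libraries lay above all sibling libraries for 9 members (12.6% of all genes) and below them for 8 (12.9% of all genes), so the share was near the background in both directions. With the replicate number as a block 4 members were higher and 2 lower. Scaling to TPM, under which the median change of all genes was 0.19 and the medians of all 7 classes were above 0 (0.04 for the scaffold, 0.09 for the fast, 0.11 for the slow, 0.15 for the heart and 0.35 for the smooth and non-muscle genes), gave 9 higher and 1 lower. Only 1 member stayed higher with replicate 2 or 3 of either genotype at 7 dpf left out. The number of lower members was 5 once mutant 7 dpf replicate 3 was omitted, and 0 after omitting mutant replicate 1, sibling replicate 1 or sibling replicate 2 of that age.

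TNNI2 on chromosome 7 (ENSDARG00000035958) was the only member called higher in mutants at both ages. At 7 dpf it was 58.3, 51.8 and 41.8 FPKM in siblings and 86.3, 85.4 and 98.7 FPKM in mutants, again without overlap, a log2 change of 0.84 ± 0.16 (adjusted p = 0.0082, limma). The call at 7 dpf held in every alternative run (adjusted p 0.0021 to 0.041). The slow troponin I TNNI1 on chromosome 6 (tnni1b) was 2.31, 1.92 and 1.70 FPKM in siblings and 3.21, 3.97 and 4.44 FPKM in mutants (0.82 ± 0.18, adjusted p = 0.023). With replicate 2 or 3 of either genotype at 7 dpf left out it was not called (adjusted p 0.075 to 0.093).

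MYL9 on chromosome 6 (myl9b), a regulatory light chain of smooth muscle, was 23.7, 25.4 and 23.3 FPKM in siblings and 35.3, 42.3 and 44.8 FPKM in mutants at 7 dpf (0.74 ± 0.16, adjusted p = 0.023, limma). Its paralog on chromosome 23 (myl9a) lay the other way, at 35.9 ± 4.80 FPKM in siblings and 23.8 ± 0.65 FPKM in mutants (-0.58 ± 0.15, adjusted p = 0.052). The MYL9 call on chromosome 6 needed each of 5 libraries at 7 dpf, being lost (adjusted p 0.059 to 0.083) without any of them but mutant replicate 1. The smooth muscle markers outside the family had a median change of -0.32 at 7 dpf, with 0 of 8 called with limma or voom (2 at an unadjusted p under 0.05), and summed to 217 to 308 FPKM in siblings and 166 to 263 FPKM in mutants.

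The light chain myl4, classed with the heart, was the only member called lower in mutants at 7 dpf. It overlaps scn4ab (mean 4.64 FPKM) on the other strand. Whether the counting used strand is not known, so the reads of myl4 are uncertain. The level of myl4 was 12.1, 13.01 and 11.7 FPKM in siblings and 6.46, 7.69 and 8.32 FPKM in mutants. This was a log2 change of -0.69 ± 0.14 (adjusted p = 0.016, limma). Its groups did not overlap at 5 dpf either, with 15.8, 18.2 and 14.2 FPKM against 13.6, 11.2 and 10.7 FPKM (-0.43 ± 0.14, adjusted p = 0.17). Leaving out mutant replicate 1, sibling replicate 1 or sibling replicate 2 of 7 dpf ended the call (adjusted p 0.054, 0.051 and 0.073). The other atrial and ventricular light chains lay higher in mutants without a call. MYL7 was 18.7, 15.7 and 15.8 FPKM in siblings and 23.2, 25.4 and 27.6 FPKM in mutants (0.59 ± 0.17, adjusted p = 0.072), and MYL2 on chromosome 5 (myl2a) gave 0.56 ± 0.19 (adjusted p = 0.13).

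The mutant effect was lower at 7 than at 5 dpf for 71 of 89 members, against 12036 of 23648 genes. The effect was lower for 64 of 76 striated members and for 7 of 13 smooth and non-muscle members. The difference passed the test for 0 members. Over all 23648 genes 0% were called in either direction with limma and 0 genes with voom, and 5.28% had a larger and 5.1% a smaller effect at an unadjusted p under 0.05. At an unadjusted p under 0.05 there were 0 members with a larger and 18 with a smaller effect at 7 dpf, and voom called 0. The smallest p belonged to tnnt2d, at 178, 85.8 and 133 FPKM in siblings and 219.7, 207 and 192 FPKM in mutants at 5 dpf, then 181, 207 and 128 FPKM in siblings and 107, 120.03 and 128 FPKM in mutants at 7 dpf. The slow myosin-binding protein MYBPC1 was at 9.08, 9.08 and 8.25 FPKM in siblings and 10.95, 11.3 and 11.3 FPKM in mutants at 5 dpf, then 11.4, 10.3 and 8.51 FPKM in siblings and 8.12, 7.32 and 8.51 FPKM in mutants at 7 dpf. These 2 members had mutant libraries all above the siblings at 5 dpf and all below them at 7 dpf, as had 0.423% of all genes. At 7 dpf the nearest libraries of the groups were almost equal for both genes. The difference of the effects was -1.22 ± 0.34 for tnnt2d (adjusted p = 0.26) and -0.64 ± 0.18 for MYBPC1 (adjusted p = 0.27). For tcap it was -1.63 ± 0.56 (adjusted p = 0.34).

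Between 5 and 7 dpf members changed in both directions in siblings. There 16 members rose and 13 fell, against 12.3% and 13% of all genes (25.3% in either direction), and the median change was -0.00. The libraries at 7 dpf lay above those at 5 dpf for 20 members (20.5% of all genes) and below for 19 (20.4% of all genes), shares near the background. In mutants 4 members rose and 17 fell, against 5.36% and 6.06% of all genes (11.4% in either direction), with a median of -0.27, and the libraries did not overlap for 9 higher members (15% of all genes) and 36 lower members (16.3% of all genes). Scaling to total recovered reads gave 13 higher and 17 lower in siblings. The number of higher members in siblings was 10 on leaving out sibling replicate 1 or 2 of 7 dpf. Each of these ended the calls of myhz1.2, myhz2, ldb3b, myoz1b, MYH7 and the TNNI2 copy ENSDARG00000045592. In mutants 2 members were higher on leaving out mutant replicate 1 or 2 of 5 dpf or replicate 3 of 7 dpf, and 7 were lower without mutant 5 dpf replicate 1. The comparisons of genotype and of age share their libraries, so they are not independent of each other.

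**Figure D3:**
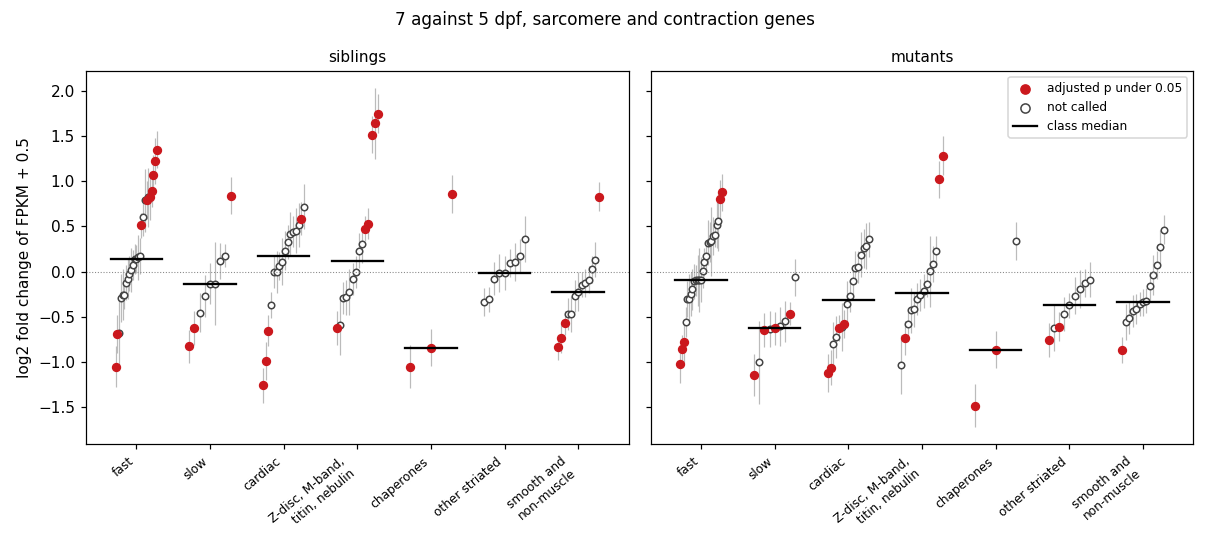
The log2 fold change of FPKM + 0.5 at 7 against 5 dpf of each tested member (points, with the standard error) in siblings (left) and mutants (right), by class. Red points passed the test, and black lines are class medians. All 9 slow genes and all 9 striated genes without a fibre type lie below 0 in mutants, against 11868 of 23648 genes.

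Of the fast heavy chains, myhz1.1 went from 1361, 1442 and 1439 FPKM at 5 dpf to 3229, 2982 and 2677 FPKM at 7 dpf, a log2 change of 1.06 ± 0.22 (adjusted p = 0.0045, limma). All libraries at 7 dpf were above those at 5 dpf. In the mutants it went from 1624, 1956 and 1543 FPKM to 1918, 1648 and 3092 FPKM, with overlap (0.33 ± 0.22, adjusted p = 0.38). The highest of these values came from mutant 7 dpf replicate 3.

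Among its neighbours myhz1.2 rose by 0.79 ± 0.21, myhz1.3 by 1.22 ± 0.25 and myhz2 by 0.82 ± 0.25 in siblings (adjusted p = 0.016, 0.0042 and 0.031), while myhc4 did not pass the test (0.82 ± 0.32, adjusted p = 0.086, and 0.0074 without mutant 7 dpf replicate 3). The call of myhz1.2 was lost without sibling replicate 3 of 5 dpf or sibling replicate 1 or 2 of 7 dpf (0.054 to 0.069), and that of myhz2 without any 1 sibling library (0.059 to 0.095). In mutants none of these 5 genes was called, with changes of 0.32 to 0.55 (adjusted p 0.22 to 0.47). The 5 genes lie in a cluster on chromosome 5 between 32206378 and 32309129. Their sequences were not compared here, and similar copies can share reads, so the share of reads given to each is uncertain. A further fast heavy chain, myhz1.1l on chromosome 22, went from 3.66, 2.84 and 5.33 to 11.4, 9.37 and 10.8 FPKM in siblings (1.35 ± 0.20, adjusted p = 0.00060). In mutants myhz1.1l rose by 0.88 ± 0.20 (adjusted p = 0.017), a call that needed mutant replicates 1 and 2 of 5 dpf and replicate 3 of 7 dpf (adjusted p 0.051 to 0.059 without 1 of them). The gene myhb rose by 0.80 ± 0.21 in mutants (adjusted p = 0.032) and shares its strand with ARPC4, so its reads are uncertain. The myhb call was lost on leaving out any 1 of the mutant libraries except replicate 2 of 7 dpf (adjusted p 0.053 to 0.11).

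Other fast genes fell with age. The light chain MYL11 on chromosome 12 (mylpfb) went from 2792, 3055 and 1901 to 1437, 1313 and 967 FPKM in siblings (-1.05 ± 0.23, adjusted p = 0.0062, limma), with no overlap. In mutants MYL11 went from 3162, 2718 and 2252 to 1359, 1560.0 and 1792 FPKM (-0.78 ± 0.23, adjusted p = 0.048). That call was lost without any 1 of 9 libraries (adjusted p 0.052 to 0.17), all but sibling 5 dpf replicates 2 and 3 and sibling 7 dpf replicate 3. TNNT3 on chromosome 25 (tnnt3a) fell by 0.69 on the log2 scale in siblings (adjusted p = 0.029, 0.11 on omitting replicate 1 of the siblings at 5 dpf or replicate 3 at 7 dpf) and by 1.02 in mutants (adjusted p = 0.0088). The abundant paralog TNNT3 on chromosome 7 (tnnt3b) did not pass the test in siblings or in mutants (0.16 ± 0.25 and -0.09 ± 0.25). The alpha-actinin of fast muscle actn3a rose by 0.89 ± 0.18 in siblings (adjusted p = 0.0036), while its paralog actn3b gave -0.02 ± 0.19. The fast myosin-binding protein MYBPC2 fell by 0.85 in mutants (adjusted p = 0.0047).

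**Figure D4:**
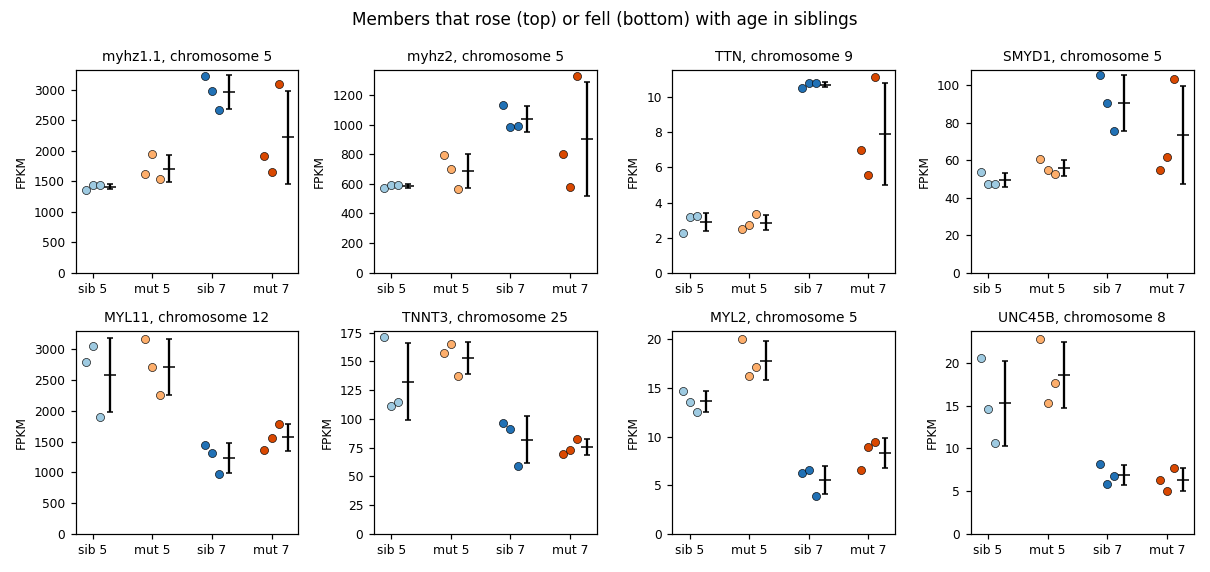
FPKM in each library (points) with the group mean ± SD (bars) of 4 members that rose (top row) and 4 that fell (bottom row) between 5 and 7 dpf in siblings (sib), beside the mutants (mut). The siblings at 7 dpf lie between 10.5 and 10.8 FPKM for titin, and the mutants at 7 dpf spread from 5.56 to 11.1 FPKM.

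Titin rose in siblings and in mutants. The gene at 42732992 to 42873700 went from 2.26, 3.18 and 3.21 to 10.5, 10.8 and 10.8 FPKM in siblings (TTN, 1.74 ± 0.22, adjusted p = 0.00019, limma) and from 2.49, 2.72 and 3.33 to 6.99, 5.56 and 11.1 FPKM in mutants (1.28 ± 0.22, adjusted p = 0.0036). The second TTN copy, at 42894845 to 43073960, rose by 1.51 ± 0.20 and 1.02 ± 0.20 (adjusted p = 0.00031 and 0.0084). Both TTN models are far longer than most genes, and the 292 tested genes with at least 10000 bases had a median age change of 0.16 in siblings and 0.058 in mutants. The titin anchor tcap rose by 1.64 ± 0.39 in siblings (adjusted p = 0.010) and did not pass the test in mutants (0.00 ± 0.39, adjusted p = 0.997, 95% interval -0.91 to 0.91). The Z-disc genes ldb3b and myoz1b rose by 0.53 ± 0.17 and 0.47 ± 0.14 in siblings (adjusted p = 0.041 and 0.026). Both of those calls needed sibling replicate 3 of 5 dpf and sibling replicates 1 and 2 of 7 dpf (adjusted p 0.10 to 0.15 for ldb3b and 0.069 to 0.098 for myoz1b without 1 of them). The call of ldb3b also needed replicate 2 of both genotypes and mutant replicate 3 at 5 dpf (0.053 to 0.099). MYOM1 on chromosome 7 (myom1b) fell by 0.62 and 0.73 in siblings and mutants (adjusted p = 0.029 and 0.027). Leaving out any 1 sibling library except replicate 3 of 5 dpf ended the first of these calls (0.064 to 0.10), and any 1 mutant library except replicate 3 of 7 dpf the second (0.059 to 0.094).

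Slow genes lay lower at 7 dpf in mutants. All 9 had a negative age change there (median -0.63), against 11868 of 23648 genes, and 4 were called lower (6.06% of all genes). The siblings had a median of -0.13, with 1 gene higher and 2 lower (12.3% and 13% of all genes). The 9 striated genes without a fibre type were all negative in mutants too (median -0.37, 2 called). Changes in mutants were also negative for 10 of 13 smooth and non-muscle genes (median -0.34) and 10 of 16 heart genes (-0.32). The scaffold genes had 9 of 14 negative (-0.24) and the fast genes 13 of 25 (-0.09). The slow heavy chains outside the family, smyhc1 and smyhc2, had positive changes in mutants. The slow troponin I tnni1c was 49.8, 41.0 and 44.7 FPKM in mutants at 5 dpf and 17.6, 21.1 and 21.8 FPKM at 7 dpf (-1.15 ± 0.23, adjusted p = 0.0091, limma). In siblings tnni1c went from 38.6, 19.3 and 35.1 to 26.8, 28.8 and 19.4 FPKM, with overlap (-0.27 ± 0.23, adjusted p = 0.44). TNNI1 on chromosome 6 (tnni1b) fell by 0.83 in siblings (adjusted p = 0.0066) and by 0.63 in mutants (adjusted p = 0.047, and 0.051 to 0.16 on leaving out any 1 library except sibling replicates 1 and 2 of 5 dpf). The tropomyosin tpm3 fell by 0.62 in siblings and 0.65 in mutants (adjusted p = 0.029 and 0.044), and MYBPC1 fell by 0.46 in mutants (adjusted p = 0.037). The tpm3 call in siblings needed every sibling library except replicate 3 of 5 dpf (0.054 to 0.099). In mutants it needed replicates 1 and 2 of the mutants at both ages, sibling replicate 1 of 5 dpf and all siblings of 7 dpf (0.053 to 0.15). The MYBPC1 call needed all 6 mutant libraries and sibling replicate 2 of 7 dpf (0.051 to 0.11). The slow heavy chain myh7ba rose by 0.84 ± 0.21 in siblings (adjusted p = 0.012) and gave -0.06 ± 0.21 in mutants.

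Of the heart genes, MYL2 on chromosome 5 (myl2a), a regulatory light chain, went from 14.7, 13.6 and 12.5 to 6.24, 6.52 and 3.84 FPKM in siblings and from 20.04, 16.2 and 17.1 to 6.60, 8.93 and 9.40 FPKM in mutants. All libraries at 7 dpf were below those at 5 dpf, with changes of -1.25 ± 0.19 and -1.06 ± 0.19 (adjusted p = 0.00073 and 0.0052, limma). The copy MYL2 on chromosome 8 (myl2b) gave -0.00 ± 0.18 and 0.05 ± 0.18. The troponin T tnnt2c fell by 0.99 and 1.12 (adjusted p = 0.0051 and 0.0062). MYL7 fell by 0.65 in siblings (adjusted p = 0.015, and 0.051 to 0.059 on leaving out sibling replicate 2 of either age or replicate 3 of 7 dpf). MYH7 rose by 0.58 ± 0.18 in siblings (adjusted p = 0.035, and 0.053 to 0.14 on leaving out any 1 sibling library except replicate 3 of 7 dpf). In mutants myl4 fell by 0.63 (adjusted p = 0.016, and 0.073 and 0.057 on leaving out mutant replicate 1 of 5 and of 7 dpf). MYBPC3 fell by 0.58 in mutants (adjusted p = 0.035, and 0.051 to 0.11 on leaving out any 1 mutant library except replicate 3 of 7 dpf, or sibling replicate 2 of 7 dpf).

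The 3 members classed as chaperones act in myosin folding or in forming the thick filament, and the SMYD1 copies went opposite ways with age. SMYD1 on chromosome 5 (smyd1a) went from 53.6, 47.1 and 47.2 to 105, 90.3 and 75.7 FPKM in siblings (0.86 ± 0.21, adjusted p = 0.010, limma), and from 60.8, 54.7 and 52.5 to 54.9, 62.0 and 103 FPKM in mutants, where the ages overlapped (0.33 ± 0.21, adjusted p = 0.35). SMYD1 on chromosome 8 (smyd1b) went the other way, from 47.6, 37.1 and 28.1 to 24.3, 18.7 and 18.4 FPKM in siblings (-0.84 ± 0.20, adjusted p = 0.010) and from 48.3, 38.0 and 40.8 to 20.5, 20.7 and 28.6 FPKM in mutants (-0.86 ± 0.20, adjusted p = 0.018). Leaving out mutant replicate 1 of 5 dpf, 1 of 7 dpf or 2 of 7 dpf gave an adjusted p of 0.077, 0.061 and 0.062 for the mutant change of SMYD1 on chromosome 8. UNC45B, a myosin chaperone, fell by 1.05 in siblings and 1.48 in mutants (adjusted p = 0.0072 and 0.0026), from 20.6, 14.6 and 10.6 to 8.12, 5.82 and 6.81 FPKM and from 22.9, 15.3 and 17.7 to 6.26, 5.03 and 7.73 FPKM. Between genotypes none of the 3 passed the test at either age (changes of -0.34 to 0.31, adjusted p 0.40 to 0.83).

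Of the smooth muscle and non-muscle forms, ACTN1, an alpha-actinin of the cytoskeleton, went from 22.8, 17.8 and 20.1 to 12.4, 11.4 and 9.59 FPKM in siblings and from 31.0, 31.1 and 26.9 to 16.1, 17.5 and 14.6 FPKM in mutants. The drop held in both genotypes (-0.84 ± 0.14 and -0.87 ± 0.14, adjusted p = 0.0011 and 0.0026, limma), and the mutants were above the siblings at both ages without passing the test (0.54 ± 0.14 and 0.51 ± 0.14, adjusted p = 0.064 and 0.056). The light chain MYL12A rose by 0.83 ± 0.16 in siblings (adjusted p = 0.0030), and myl12.1 and MYL9 on chromosome 6 (myl9b) fell by 0.57 and 0.73 (adjusted p = 0.0082 and 0.0070).

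Contractile genes outside the family also differed in their direction with age. The slow heavy chain smyhc1 was 42.0, 50.7 and 51.3 FPKM in siblings at 5 dpf and 128, 117 and 92.6 FPKM at 7 dpf (1.21 ± 0.19, adjusted p = 0.00068, limma), and smyhc2 rose by 0.70 ± 0.18 (adjusted p = 0.015). In mutants the changes of smyhc1 and smyhc2 were 0.23 ± 0.19 and 0.43 ± 0.18 (adjusted p = 0.49 and 0.16). The fast heavy chain myha and the tropomyosin tpma were not called in any comparison. Of 5 actins, ACTA1 (ENSDARG00000055618) went from 778, 1267 and 752 to 255, 235 and 134 FPKM in siblings and from 1111, 1085 and 1049 to 499, 454 and 429 FPKM in mutants, so that it was higher in mutants at 7 dpf (1.20 ± 0.25, adjusted p = 0.015, and 0.052 on leaving out mutant replicate 2 or sibling replicate 3 of 7 dpf). Myoglobin, mb, which stores oxygen, was the 1 of 9 energy genes called between genotypes at 7 dpf (0.93 ± 0.17, adjusted p = 0.0062). At that age 1 of 5 actins and 1.8% of all genes were called higher.

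The calcium-handling genes, 22 of them tested, held 0 calls between genotypes at either age with limma (2.82% and 5.05% of all genes). At an unadjusted p under 0.05 there was 1 lower at 5 dpf and 1 higher and 2 lower at 7 dpf, and voom called 0 and 1. With age, the calcium pump atp2a1l rose by 1.80 ± 0.25 in siblings and 1.55 ± 0.25 in mutants (adjusted p = 0.00035 and 0.0026, limma). Calsequestrin CASQ2 fell by 2.08 and 1.69 (adjusted p = 0.00014 and 0.0016, limma). Of 17 cytoskeleton genes outside the family limma called 0 between genotypes at either age. At 5 dpf 7 were higher and 1 lower at an unadjusted p under 0.05 (6.98% and 7.53% of all genes), with a median change of 0.21. At 7 dpf 0 were higher and 3 lower (9.92% and 9.66% of all genes), with a median of -0.19. Voom called 0 of them at 5 dpf and 1 lower at 7 dpf. Among 19 myogenic factors, which switch on muscle genes, 0 were called at 5 dpf (2 at an unadjusted p under 0.05, and 0 by voom). At 7 dpf 8 were lower and 1 higher in mutants at an unadjusted p under 0.05 (9.66% and 9.92% of all genes). The limma test called 3 of them lower at 7 dpf (3.25% of all genes), where voom called 0. These were MYF5 (-0.68 ± 0.15, adjusted p = 0.017), six4a (-0.62 ± 0.15, adjusted p = 0.032) and MEF2C (-0.53 ± 0.14, adjusted p = 0.050), none of which was called when the values were scaled to TPM (adjusted p = 0.12, 0.19 and 0.18). Leaving out 1 library ended the call of MYF5 (replicate 1 of either genotype, mutant replicate 2 or sibling replicate 3 of 7 dpf, 0.057 to 0.073), six4a (any library of 7 dpf except mutant replicate 3, 0.054 to 0.12) and MEF2C (any library except mutant replicate 3 of 7 dpf and sibling replicate 2 of 5 dpf, 0.058 to 0.17). In siblings 6 of the 19 rose with age (12.3% of all genes), led by MYF6 at 1.44 ± 0.20 (adjusted p = 0.00038), and in mutants 2 rose and 2 fell (5.36% and 6.06% of all genes).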

How the data were processed

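RNA-seq of pools of whole larvae gave 12 libraries. No source says whether the pools came from separate clutches, and p-values cover only the spread from pool to pool. The authors mapped the reads to GRCz11 and deposited FPKM values per gene (HISAT2 2.0.5 per the submitters' notes). Not given in the sources used here are the read counter, whether it used strand, and how FPKM were scaled. Whole reads were recovered from the FPKM steps, and 100% of tested values below 10000 reads were whole within 0.01. Members, classes, lists and alternatives were chosen with earlier results of these data known. Genes with at least 0.5 FPKM in 3 libraries were kept, and limma 3.58.1 in R 4.3.3 fitted log2(FPKM + 0.5) in 1 model of the 4 groups (8 residual degrees of freedom), with Benjamini and Hochberg adjustment over all tested genes. A script tested on simulated data ran the fit. The 95% intervals used the standard errors of limma with the 8 residual degrees of freedom. The limma p-values use more degrees of freedom, so the intervals are wider than those of the test. Named members were the 6 highest of each class, up to 4 called members with the largest change per class and comparison, and all chaperones. Other contractile genes were up to 3 called per list, and a few members and other genes were chosen after their values were seen. Deviations of mutants and siblings with the same replicate number correlated at 5 dpf (0.27, 0.13 and 0.22) but not at 7 dpf (0.054, 0.087 and -0.023). The labels give only the numbers, so whether they pair samples is not known. The main model held no block, and the blocks were run as alternatives. RefSeq names come from the assembly GRCz12tu. Alternatives covered pseudocount, filter, scaling, library weights, blocks, the model's groups, left-out libraries and voom on the recovered reads.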

Additional observations from a re-analysis of the deposited data

How the results depend on the processing

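Counts of called members moved most with the libraries and the scaling, and the cause was not tested. At 5 dpf 6 members were higher in mutants, and 3 were with no filter, with only the 2 groups compared in the model, or without sibling 5 dpf replicate 2 and mutant 7 dpf replicate 3 together, an alternative chosen after seeing the data like total reads and voom. Leaving out 1 library gave 1 to 6 (0 lower throughout). At 7 dpf 3 members were higher and 1 lower. TPM gave 9 higher, library weights 6, total reads 8 and voom 9. The median of ratios, the replicate block, the block within each age and a filter at 1 FPKM each gave 2 lower, library weights 7 and leaving out the 2 libraries 9. Leaving out 1 library gave 1 to 4 higher and 0 to 5 lower. With age 16 members rose and 13 fell in siblings, 10 to 18 and 9 to 14 without 1 library. In mutants 4 rose and 17 fell, 2 to 4 and 7 to 23 without 1 library, and 29 fell with library weights, 26 with voom and 25 with total reads. For genes named in the text no direction of a called change reversed, and 8373 of the values recomputed over 360 pairs of gene and comparison kept their side of the threshold, 289 lost a call and 158 gained one.

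Whether the replicate numbers pair the samples is not known, and the main counts took no account of a pairing. The replicate block left 5 members higher at 5 dpf. At 7 dpf the replicate block called 4 members higher and 2 lower. Voom called 601 genes at 5 dpf and 1580 at 7 dpf, against 666 and 1194. Total reads, TPM and voom put the median change of all genes at 0.12, 0.18 and 0.15 at 5 dpf and at 0.16, 0.19 and 0.20 at 7 dpf. With TPM the medians at 7 dpf were 0.09 for fast, 0.11 for slow and 0.15 for heart genes, all below that of all genes. The fast median at 7 dpf was -0.31 without mutant 7 dpf replicate 3 and -0.10 with it.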

Other observations

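Some contractile genes had listed levels far from those of their partners. How reads that match several genes or either strand were counted is not known here, and the part of this in the low values was not tested. Fast troponin I (TNNI2 ENSDARG00000029069) and fast troponin T (TNNT3 on chromosome 7) averaged 2299 and 1720 FPKM, whereas the fast troponin C gene TNNC2 on chromosome 23 averaged 1.22 FPKM, with 9 to 54 reads in each library, and its neighbour tnnc2.1 was listed at 0 in all 12 libraries. MYL11 on chromosome 3 (mylpfa) averaged 0.269 FPKM, with 70 reads over all libraries, whereas MYL11 on chromosome 12 (mylpfb) averaged 2026 FPKM with 10441 to 41208 reads. Nebulin, NEB, averaged 0.316 FPKM with 50 to 232 reads over a model of 19942 bases, and TTN averaged 6.09 and 5.44 FPKM.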
